A study of Homo sapiens with 3 samples.

Results

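The transcription factors SNAI1, SNAI2, TWIST1, ZEB1 and ZEB2, the cadherins CDH1 and CDH2, and the mesenchymal proteins VIM and FN1 were followed in HT29, a human cell line established from a colorectal adenocarcinoma. The members are all probe sets that the platform annotation assigns to exactly 1 of these 9 genes, with low-signal sets kept. This gave 25 of the 54613 non-control probe sets of the array, and 9 of the 19775 genes that have a probe set of their own. Cells transduced by lentivirus with a miR-146a expression construct (2 arrays, replicates 1 and 2) were compared with cells transduced with an empty vector (1 array), all grown in DMEM with serum. Nothing in the labels states that the 2 miR-146a arrays are of separate cultures. Any p-value therefore covers the spread between 2 arrays, which may be technical only, and the single vector array has no spread of its own. Precision is limited by having 3 arrays, and the labels do not tell whether the transduced cells were clones or pools.

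In the epithelial-mesenchymal transition (EMT), cells loosen their junctions and take on a migratory state. SNAI, ZEB and TWIST proteins are the factors best known for driving it, and SNAI and ZEB proteins repress CDH1 by binding E-box sequences in its promoter. A cadherin switch is the replacement of the epithelial E-cadherin by N-cadherin, and it is often read together with the intermediate filament vimentin and the matrix protein fibronectin. The microRNA expressed here, miR-146a, is known as a brake on signalling from Toll-like and interleukin-1 receptors. Its mature strand, from RefSeq (GRCh38.p14, chr5:160485372-160485393, plus strand), is shown because it is the agent that separates the groups, with the seed, bases 2 to 8, in capitals.
miR-146a-5p: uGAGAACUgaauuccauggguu

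CDH1 was read at a high signal in every array, while every set of CDH2, ZEB1, ZEB2, SNAI2 and TWIST1 lay below the median signal of the array. The 4 FN1 probe sets with a signal above the median read 1.27-fold to 1.53-fold higher in miR-146a cells than in vector cells. The low-signal set of CDH1 read 1.49-fold lower in miR-146a cells, while its high-signal set read 1.07-fold lower. The 12 sets of the 5 factors, the 2 of CDH2 and the 2 of VIM all differed from the vector by between -0.14 and 0.15 on the log2 scale. Limma as it is usually run called no member, and it called 0% of all sets. With another variance prior it called 3 FN1 sets and the low-signal CDH1 set, against 3.33% of all sets. A robust prior called none of these and instead called sets of ZEB1, ZEB2 and CDH2 (3 members, against 10.4% of all sets).

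All values are log2 signals, and differences are miR-146a minus vector on that scale. The median signal over all non-control probe sets, 5.13, serves as a mark of low signal and is not a detection call. The arrays had medians of 5.14 and 5.12 (miR-146a replicates 1 and 2) and 5.13 (vector). Of the 10 colon epithelial markers, each read through its highest-signal probe set, 9 lay above that mark and only GPA33 lay below it. Among all 19775 genes read in this way, 12444 lay above it. Of the probe sets annotated to MIR146A, one read 2.79 and 2.82 in miR-146a cells against 2.96 in vector cells. The other read 5.03 and 5.23 in miR-146a cells against 4.82 in vector cells, above the mark in replicate 2 only. They read the host transcript and do not check the labels.

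SNAI1, the zinc-finger repressor that initiates many EMT programmes, was the only factor of the 5 with a probe set above the mark. Its set 219480_at read 6.27 and 6.45 in miR-146a cells and 6.27 in vector cells. One miR-146a array equalled the vector and the other was higher, so the groups overlapped. The difference was 0.09, with a 95% interval from -0.18 to 0.36. This interval, like those that follow, comes from limma with the variance prior estimated from probe sets whose miR-146a replicates differ, which gives every set a standard error of 0.14.

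SNAI2, the paralog of SNAI1, was read by 213139_at at 2.97 and 2.64 in miR-146a cells and 2.91 in vector cells. The vector value lay between the 2 replicates. TWIST1, a basic helix-loop-helix factor that promotes CDH2, was read by 213943_at at 2.22 and 2.47 in miR-146a cells and 2.49 in vector cells. Both replicates were below the vector, but replicate 2 by only 0.01. At this signal a transcript that is absent cannot be told apart from one that is weakly expressed.

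ZEB1, a zinc-finger homeobox repressor of CDH1, had 4 probe sets between 2.62 and 3.69, and they did not move together. The set 239952_at read 3.52 in both miR-146a arrays and 3.39 in vector cells, and 212764_at read 2.87 and 2.63 in miR-146a cells and 2.62 in vector cells. These 2 sets were higher in both miR-146a arrays. The set 212758_s_at read 3.69 and 3.53 in miR-146a cells and 3.69 in vector cells, and 210875_s_at read 2.96 and 2.67 in miR-146a cells and 2.79 in vector cells. In these the groups overlapped, and the 4 differences ran from -0.08 to 0.13. With all 4 sets averaged ZEB1 differed by 0.05, against -0.08 through its highest-signal set, so its sign depends on the probe set.

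ZEB2, the paralog of ZEB1, had 5 probe sets between 2.31 and 3.10. One of them, 233031_at, was higher in both miR-146a arrays, at 3.10 in each against 2.95 in vector cells. In the other 4 the groups overlapped, and 233033_at read 3.06 in all 3 arrays. The 5 differences ran from -0.01 to 0.15. Over the 13 probe sets of ZEB1, ZEB2, TWIST1, SNAI2 and CDH2 the differences stayed between -0.14 and 0.15.

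CDH1 encodes E-cadherin, the calcium-dependent adhesion protein of epithelial adherens junctions. Its set 201131_s_at had the highest signal of the 25, at 11.18 and 11.29 in miR-146a cells and 11.33 in vector cells. Both miR-146a arrays lay below the vector, replicate 2 by 0.04, and the difference was -0.09 with an interval from -0.36 to 0.18. The second set, 201130_s_at, read 4.52 and 4.63 in miR-146a cells and 5.15 in vector cells. Here the groups were clearly apart, with a difference of -0.57 (1.49-fold lower, interval -0.84 to -0.30), but the signal lay below the mark in both miR-146a arrays and just above it in the vector array. The 2 sets of this gene thus gave differences of unlike size, and their average was -0.33. Which part of the CDH1 transcripts, or which isoforms, each set reads was not examined here.

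CDH2 encodes N-cadherin, the cadherin of neural and mesenchymal cells. Its set 203441_s_at read 4.63 in both miR-146a arrays and 4.72 in vector cells, and 203440_at read 3.25 and 3.17 in miR-146a cells and 3.17 in vector cells. The first was lower in both arrays and the second overlapped. Their intervals, -0.36 to 0.18 and -0.23 to 0.30, do not include a 1.5-fold difference on the array scale. This cannot exclude a change in CDH2, because the array scale compresses changes at low signal. The width of the intervals also rests on the spread between the 2 miR-146a arrays alone. VIM, which encodes vimentin, was read above the mark by 201426_s_at, at 5.49 and 5.38 in miR-146a cells and 5.57 in vector cells. Both replicates were lower, with a difference of -0.14 and an interval from -0.41 to 0.13. Its other set, 1555938_x_at, lay near the floor of the arrays at 2.80 and 2.82 in miR-146a cells and 2.78 in vector cells.

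**Figure D1:**
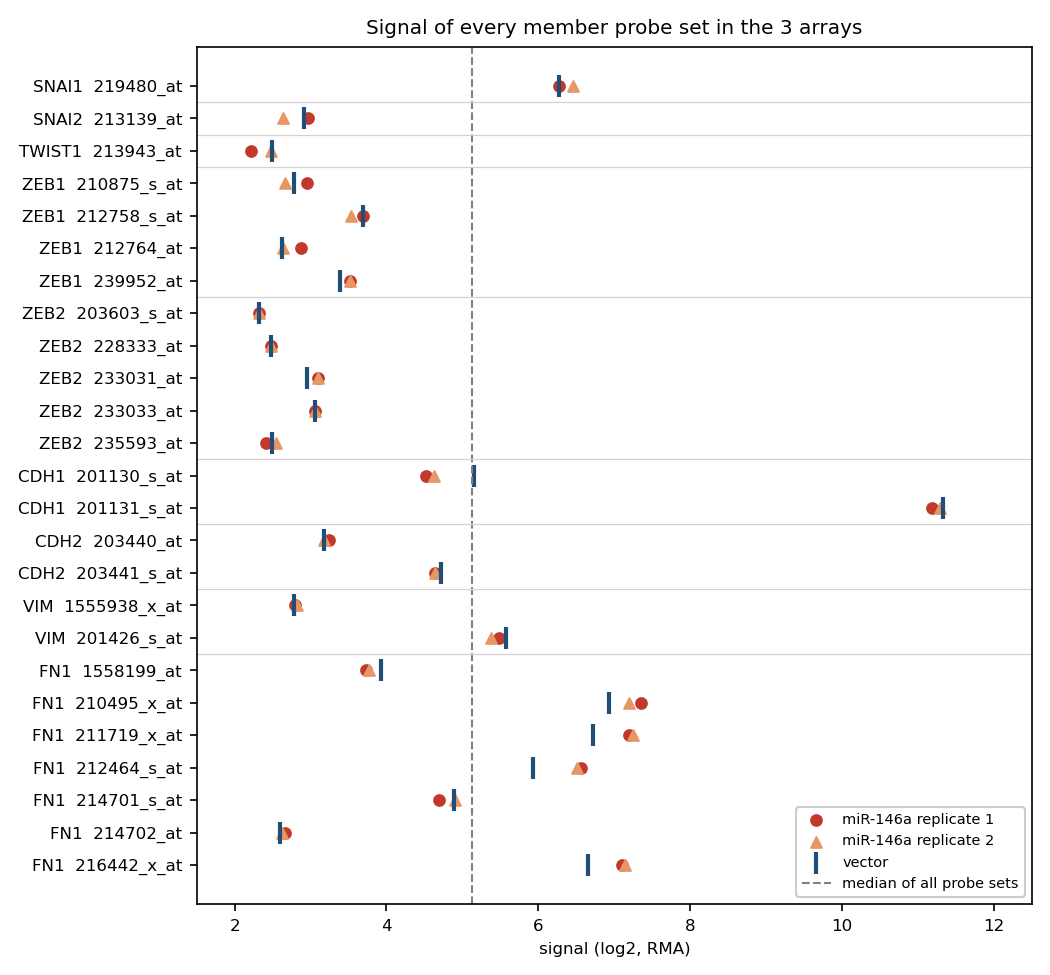
Log2 signal (x axis) of the 25 member probe sets, 1 per row, in miR-146a replicate 1 (circle), miR-146a replicate 2 (triangle) and vector (bar), with the median of all probe sets, 5.13, as a dashed line. CDH1 201131_s_at stands alone above 11, the 4 FN1 sets right of the dashed line show the vector bar left of both miR-146a points, and the rows of ZEB1, ZEB2, TWIST1, SNAI2 and CDH2 all lie left of the dashed line.

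FN1 encodes fibronectin, a matrix glycoprotein that cells bind through integrins and that rises in many EMT models. It had 7 probe sets. The set 212464_s_at read 6.56 and 6.51 in miR-146a cells and 5.93 in vector cells. Set 211719_x_at read 7.20 and 7.24 in miR-146a cells and 6.72 in vector cells. Set 216442_x_at read 7.10 and 7.14 in miR-146a cells and 6.65 in vector cells. In these 3 sets the 2 miR-146a arrays lay close together and well above the vector. The fourth above the mark, 210495_x_at, read 7.35 and 7.19 in miR-146a cells and 6.93 in vector cells, with a wider gap between replicates but again no overlap.

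The differences of these 4 sets were 0.61 (212464_s_at, interval 0.34 to 0.88), 0.50 (211719_x_at, 0.23 to 0.77), 0.47 (216442_x_at, 0.21 to 0.74) and 0.34 (210495_x_at, 0.07 to 0.61). They are annotated to 1 gene, and 3 of them carry the suffix _x_at, which marks probes that may bind other transcripts, so they are not 4 independent measurements. In RNA from whole cultures, more cells with FN1 and more FN1 per cell cannot be told apart. Among all non-control probe sets, 0.342% had a difference at least as high as that of 212464_s_at and 2.97% one at least as high as that of 210495_x_at.

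The 3 FN1 sets below the mark did not share this difference. Set 1558199_at read 3.72 and 3.77 in miR-146a cells and 3.93 in vector cells, lower in both. Set 214701_s_at read 4.69 and 4.90 in miR-146a cells and 4.89 in vector cells, and 214702_at read 2.67 and 2.62 in miR-146a cells and 2.60 in vector cells. All 7 sets averaged gave a difference of 0.24. As for CDH1, the part of the FN1 transcripts that each set reads was not examined here.

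As FN1 held the probe set with the largest difference of the 25 (212464_s_at, 0.61), its promoter is shown: the 250 bases before the gene start, from RefSeq (GRCh38.p14, chr2:215436069-215436318, minus strand). Capitals mark TGACGTCA, the cAMP response element bound by CREB and ATF factors, which is its own reverse complement.
FN1 promoter: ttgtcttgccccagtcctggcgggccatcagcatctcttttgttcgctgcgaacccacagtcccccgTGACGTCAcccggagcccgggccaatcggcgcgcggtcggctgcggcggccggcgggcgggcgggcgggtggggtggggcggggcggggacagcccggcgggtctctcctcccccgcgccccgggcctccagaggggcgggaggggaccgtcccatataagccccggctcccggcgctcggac
The element starts at -183 from the gene start, and 1.65% of the 35116 promoter windows of this length hold it. E-boxes of the form CAGGTG or CACCTG, the kind that SNAI and ZEB proteins bind, were searched on both strands in the same windows. They are in 17.5% of all windows and in 2 of the 7 ZEB1 windows. None of the FN1, VIM and ZEB2 windows, 1 each, or of the 2 CDH2 windows holds a match. No such window was available for CDH1, SNAI1, SNAI2 and TWIST1, so these were not searched. These matches describe letters only.

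Fibroblasts make fibronectin in tissue, and 9 markers of them were read through the highest-signal probe set of each gene. Of these markers 3 lay above the mark (COL1A1, DCN and THY1) and the rest below it, where 12444 of all 19775 genes lay above. In both arrays 1 lay above and 2 below the vector, against 33.1% and 27% of all genes. The summed log2 signal of the 9 was 41.3 and 41.7 in miR-146a cells against 41.9 in vector cells. Whether fibroblasts had a part in the FN1 difference was not tested. The 5′ control sets of ACTB and GAPDH, a sign of RNA quality, read lower in miR-146a cells by -0.18 to -0.32, while their 3′ sets differed by -0.03 to 0.05. Their part in the FN1 and CDH1 differences was not tested.

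**Figure D2:**
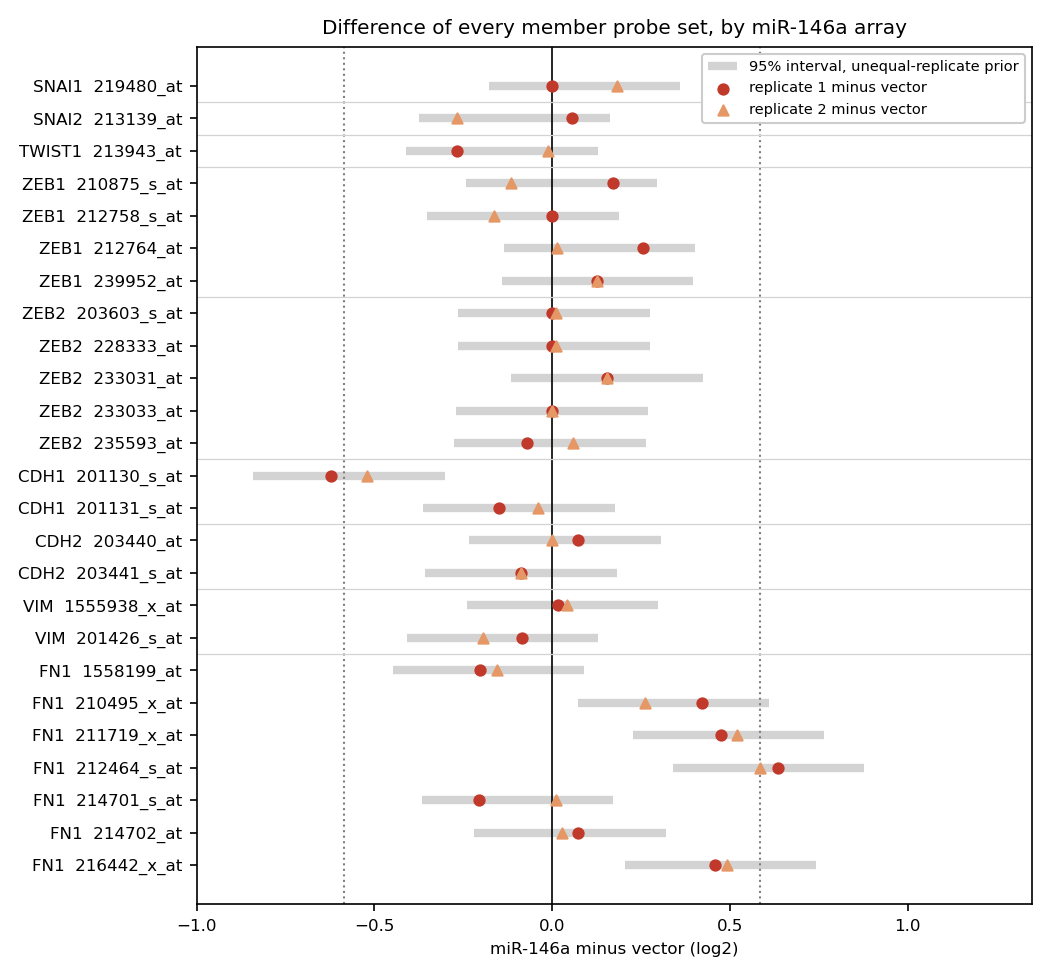
Difference from the vector (x axis, log2) of the 25 member probe sets for miR-146a replicate 1 (circle) and replicate 2 (triangle), with the 95% interval from the unequal-replicate prior as a grey bar and dotted lines at 1.5-fold. The intervals of 4 FN1 sets lie right of 0, that of CDH1 201130_s_at lies left of 0, and the other 20 include 0.

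Over the 25 sets, 9 were higher and 6 lower in miR-146a replicates 1 and 2 alike, and in 10 the groups overlapped. Among all non-control probe sets 29.1% were higher in both and 28.9% lower in both, so the members' split was near the background. Their median difference was 0.01, against 0.00 for all sets, and their median absolute difference was 0.10, against 0.08. No member was at least 1.5-fold apart from the vector in both arrays, where 0.293% of all sets were at least 1.5-fold higher and 0.485% lower. The nearest were FN1 212464_s_at, at 0.64 and 0.58, and CDH1 201130_s_at, at -0.62 and -0.52, with the 1.5-fold mark at 0.58 (the smaller FN1 value is just under it before rounding).

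Limma, fitted over all 54613 sets with Benjamini-Hochberg adjustment, called 0 of the 25 members at an adjusted p of 0.05, and it called 0% of all sets. At an unadjusted p under 0.05, 7 of the 25 passed, against 20.2% of all sets. The lowest adjusted p of a member was 0.0964 (ZEB2 233031_at), a set with exactly equal replicates. No set of the table had a lower one, but the adjustment gave this same value to many sets. It therefore does not rank ZEB2 first. Equal replicates occurred in 4 member sets and in 19.3% of all sets, and they leave limma almost no spread to work with. Since limma called no set of the whole table, its lack of calls among the members does not show that they did not differ.

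With the prior from unequal replicates limma called 4 members, against 3.33% of all sets (1.38% higher and 1.94% lower). FN1 passed through 212464_s_at (adjusted p = 0.00097), 211719_x_at (adjusted p = 0.0143) and 216442_x_at (adjusted p = 0.0223), all higher, while 210495_x_at did not (adjusted p = 0.198). CDH1 passed through 201130_s_at alone (adjusted p = 0.0026), as lower. This fit assumes that a vector array would vary as the miR-146a arrays do. A robust prior instead called ZEB1 239952_at, ZEB2 233031_at and CDH2 203441_s_at (3 members, against 10.4% of all sets), each with equal replicates, at differences of 0.13, 0.15 and -0.09.

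**Figure D3:**
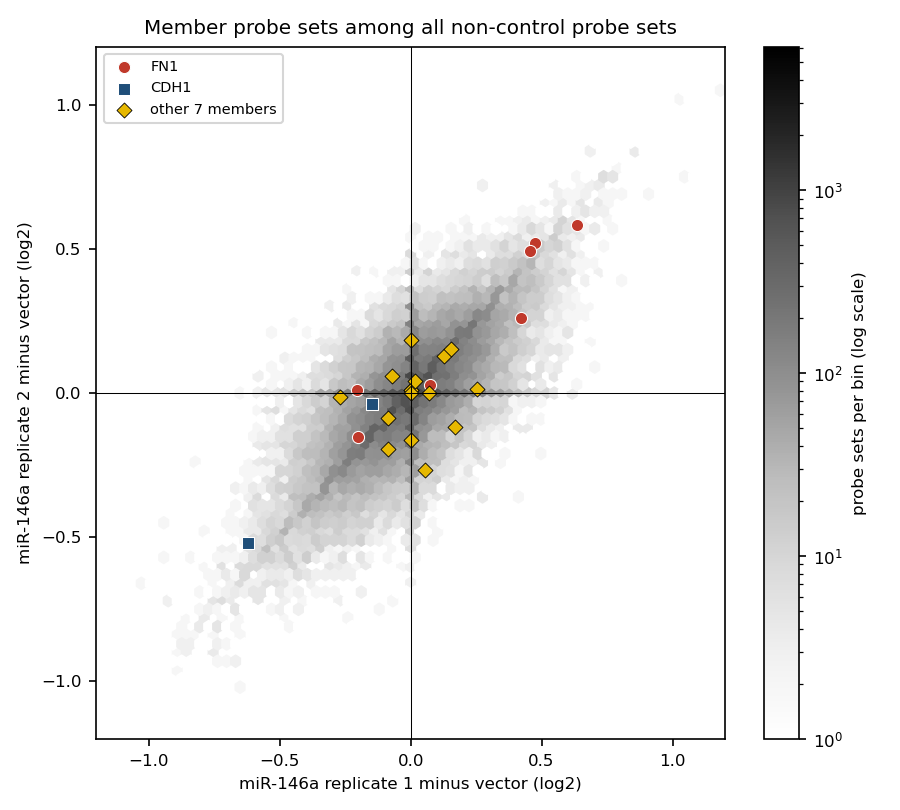
Difference from the vector in miR-146a replicate 1 (x axis, log2) against replicate 2 (y axis, log2) for all non-control probe sets (grey, darker with more sets per bin, log scale), with FN1 (circles), CDH1 (squares) and the other 7 members (diamonds). The 4 high FN1 sets lie at the upper right and 1 CDH1 set at the lower left, while the rest sit in the central cloud. A further 25 probe sets lie outside the plotted range of 1.2 in either direction.

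Around the members, related genes were read through the probe set with the highest signal per gene. Limma called 0% of the 19775 genes, while 21.1% had an unadjusted p under 0.05. Of these genes 33.1% were higher and 27% lower than the vector in each miR-146a array, and with the prior from unequal replicates 3.79% passed as higher and 2.18% as lower. In that fit with 1 set per gene, FN1 210495_x_at also passed (adjusted p = 0.0374).

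Of 13 other EMT-promoting transcription factors measured, 4 lay above and 2 below the vector in both arrays, and the median difference was 0.04. With the prior from unequal replicates 1 passed as higher and 1 as lower. FOXQ1, a forkhead factor, was the higher one, at 11.65 in both miR-146a arrays and 11.20 in vector cells (1.37-fold, adjusted p = 0.00223). KLF8, a Krüppel-like repressor, was the lower one, at 4.11 and 3.62 in miR-146a cells and 4.45 in vector cells, below the mark (adjusted p = 3.11e-05). Its 2 replicates lay well apart, limma as it is usually run gave it an adjusted p of 0.620, and its other set differed by 0.00. HMGA2, a chromatin protein that acts upstream of SNAI1, read 8.62 in both miR-146a arrays and 8.34 in vector cells, but its 9 sets ranged from -0.13 to 0.28. TCF4, an E-protein partner of TWIST1, differed by 0.21 at a signal below the mark, with its 8 sets from -0.13 to 0.28.

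Of 13 epithelial regulators measured, 7 lay below and 3 above the vector in both arrays. Their median difference was -0.07, and that of all genes was 0.00. With the prior from unequal replicates 1 passed, FOXA1, a pioneer factor of endodermal epithelia, as higher (6.94 and 7.09 in miR-146a cells against 6.60 in vector cells, adjusted p = 0.00646, and its other set at 0.75). FOXA2, its paralog, differed by 0.16. GRHL1, a grainyhead factor that supports desmosomal genes in mouse epidermis, differed by -0.22, and OVOL1, a zinc-finger factor that maintains the epithelial state, by -0.09. ELF3 counted as lower at -0.05 through its highest-signal set, but its 3 sets reached 0.55 and averaged 0.33.

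Of 8 other cadherins measured, 3 lay below and 1 above the vector in both arrays, and 1 passed with the prior from unequal replicates. This was CDH17, the liver-intestine cadherin of enterocytes, which read 5.39 and 5.24 in miR-146a cells and 5.86 in vector cells, a difference of -0.54 (adjusted p = 0.000104). CDH3, P-cadherin, read 8.09 and 7.98 in miR-146a cells and 7.94 in vector cells. The protocadherins of the brush border, CDHR5 and CDHR2, differed by -0.19 and 0.00, with overlap in CDHR2. CDH15, the muscle cadherin, read 5.44 in all 3 arrays, with a difference of 0.28 in its other set. CDH11, a mesenchymal cadherin below the mark, differed by -0.09, with its 4 sets from -0.09 to 0.04.

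Among the 16 measured partners of adherens junctions and desmosomes, 8 lay below and 5 above the vector in both arrays, and the median difference was -0.02. DSG2, a desmosomal cadherin, was the 1 that passed with the prior from unequal replicates. It read 10.71 and 10.81 in miR-146a cells and 11.11 in vector cells (-0.35, adjusted p = 0.0307), and its other set differed by -0.66. DSP, desmoplakin, differed by -0.26, and DSC2, the second desmosomal cadherin, by -0.23, though its 4 sets ranged from -0.46 to 0.08. CTNNA2, the neural alpha-catenin, differed by 0.26 at a signal below the mark.

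Of 20 other mesenchymal genes measured, 9 lay above and 3 below the vector in both arrays, and the median difference was 0.03. None passed limma with either prior. At an unadjusted p under 0.05, 4 passed limma as it is usually run and 2 passed with the prior from unequal replicates. Over all 19775 genes these numbers were 4175 and 3067. ACTA2, smooth muscle actin, differed by 0.25, though its 3 sets ranged from -0.14 to 0.25 and averaged 0.02, and ITGA5, a subunit of the fibronectin receptor, by 0.21. LOX, a collagen crosslinking enzyme, differed by 0.30 below the mark. COL1A1, a fibrillar collagen chain, differed by -0.16, with its 5 sets from -0.74 to 0.33. Of the 13 measured corepressors and stability regulators of SNAI and ZEB proteins, 8 lay above and 3 below the vector in both arrays, and the median difference was 0.09. FBXL14, a ubiquitin ligase subunit that degrades SNAI1, was the 1 that passed (8.43 and 8.48 in miR-146a cells against 8.08 in vector cells, adjusted p = 0.0175 with the prior from unequal replicates), but its 3 sets ranged from -0.08 to 0.37. CTBP2, a corepressor recruited by ZEB1, differed by 0.13 (its 6 sets from -0.04 to 0.16), AJUBA, a SNAI1 corepressor, by -0.15 (its 4 sets from -0.17 to 0.34), and RCOR1, a scaffold of the KDM1A complex, by -0.20.

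**Figure D4:**
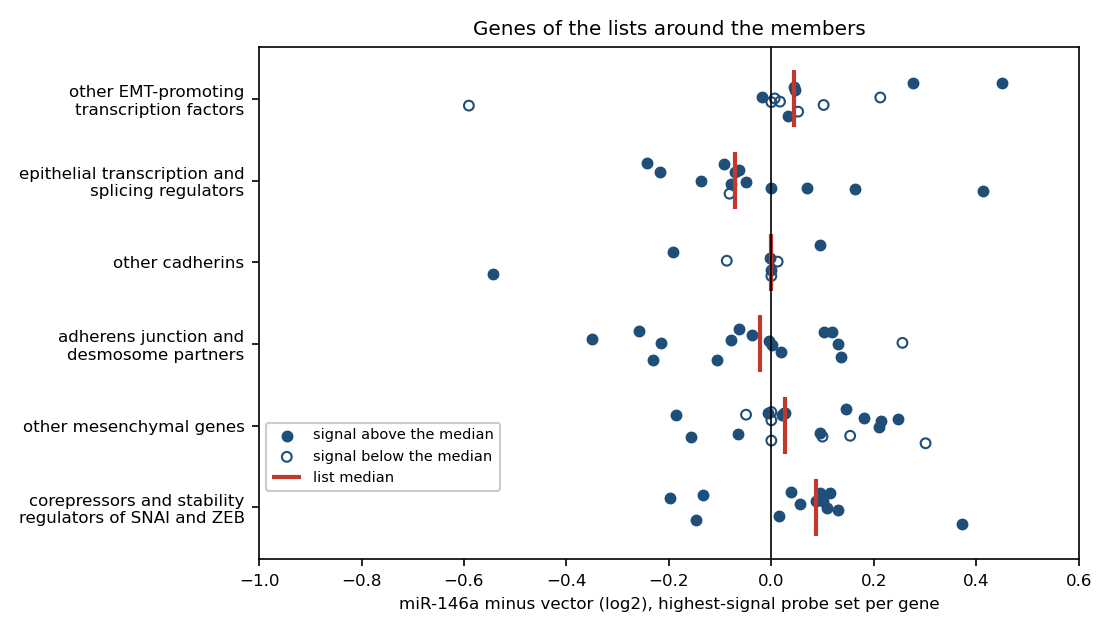
Difference from the vector (x axis, log2) of each gene in 6 lists around the members, read through its highest-signal probe set, with filled points for signals above the median, open points for those below, and a red line at each list's median. The medians lie between -0.07 (epithelial regulators) and 0.09 (corepressors and stability regulators), and single genes such as CDH17 (-0.54) and FOXQ1 (0.45) stand apart.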

How the data were processed

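Affymetrix arrays were hybridised with biotin-labelled cRNA, per the labels' protocols. The deposited table holds log2 values for 54675 probe sets, made by the authors with RMA per the submitters' processing notes (background correction, normalization between arrays, median-polish summary); no source used here gives the RMA version or says whether further arrays were processed together. RMA brings the arrays to nearly one distribution and compresses differences at low signal. The 62 control sets were left out of all fits.

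Gene names came from the platform annotation, with symbols updated by Entrez number in a RefSeq gene table; 41091 sets have 1 gene. Fits used limma 3.58.1 (R 4.3.3) with two-sided tests, Benjamini-Hochberg adjusted over all sets or genes tested and a threshold of 0.05. The design leaves 1 residual degree of freedom. Prior degrees of freedom were 0.45, and infinite with the prior from unequal replicates, which then gives all sets 1 spread. SDs are not printed where both replicate values are. Every probe set of the 9 members is named. Of the other lists, up to 4 genes are named by the smaller of their 2 array differences, as are all further cadherins above the median signal. ELF3 is named besides for the spread of its sets. Genes without a set of their own under these rules were not analysed here. The members and lists were chosen with earlier results of these data known. The fit was tested on simulated data. Figures were drawn with matplotlib 3.10.9.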

Additional observations from a re-analysis of the deposited data

How the results depend on the processing

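No paired analysis was possible because there is only 1 vector array. Limma called 0 member sets also with an intensity trend, both filters on low signal, quantile normalization, cyclic loess, without _x_at and _s_at sets, and with 1 value per gene, but it called 0% of all sets as well in the fit reported, so the repeated 0 says nothing about stability. It called 4 with the prior from unequal replicates and 3 with a robust prior. With the unequal-replicate prior fitted above the median signal, a setting chosen after seeing the data, it called 3, all FN1. No share of all sets was taken for that setting, so its 3 calls have no background to be read against. The count at least 1.5-fold apart in both arrays was 1 with quantile normalization, and 0 to 2 when either miR-146a array was left out. The count higher was 4 with the filter at the median, 3 at percentile 70, 4 without _x_at and _s_at sets, 1 with the highest-signal set per gene, 2 with averaged sets, and 12 to 14 with 1 miR-146a array left out. The count lower was 2 at the median filter, 1 at percentile 70, 2 without _x_at and _s_at sets, and 8 to 9 with 1 array left out. The filters, the removal of _x_at and _s_at sets and the use of 1 value per gene leave fewer values to count by construction. The median filter keeps 7 of the 25 member sets, and 1 value per gene leaves 9. With an array left out, only 1 array has to differ. Quantile normalization kept all sets and arrays. No share of all sets was taken for any of these counts, so they have no background to be read against. ZEB1 reversed when its sets were averaged (0.051); the cause was not tested. Of the 25 sets 18 lay below the median signal, where an absent transcript cannot be told apart from a weak one.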
